A study of Arabidopsis thaliana with 2 samples.

Results

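The 3 CBF transcription factors and 7 of the cold-regulated genes they are known to control were followed in the mature main stem of Arabidopsis thaliana. The set holds CBF1 (AT4G25490), CBF2 (AT4G25470), CBF3 (AT4G25480), COR15A (AT2G42540), COR15B (AT2G42530), COR47 (AT1G20440), KIN1 (AT5G15960), KIN2 (AT5G15970), RD29A (AT5G52310) and ERD10 (AT1G20450). They were taken by locus identifier, and all 10 were found among the 33602 loci with an identifier. RNA of stems from hdt1 mutant plants (1 library) was compared with RNA of stems from wild-type plants (1 library), both collected 35 days after flowering. All plants grew in a greenhouse at 20 °C under 16 h of light and 8 h of dark, and the labels name no cold treatment, no allele, no ecotype and no number of plants per library. HDT1 encodes a plant-specific histone deacetylase of the HD2 type. With 1 library per genotype no difference had a replicate check and no test between genotypes was made.

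Cold acclimation in Arabidopsis runs through the CBF proteins, AP2-domain factors also called DREB1, whose genes are induced within minutes to hours of a temperature drop and are gated by the circadian clock. They bind the C-repeat, also called the dehydration-responsive element (CRT/DRE), in the promoters of the COR genes, whose products are mostly hydrophilic proteins that protect membranes and proteins during freezing and drought. Many COR promoters also carry abscisate-responsive elements (ABRE), so the same genes answer drought without the CBF factors. HDT3 (HD2C), a relative of HDT1, is known to act with the WD40 protein HOS15 at COR15A and COR47 chromatin.

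Upstream sequences are shown because they are what the CBF factors are known to read. The CRT/DRE core CCGAC was searched on both strands in the 1000 bases before the start codon of the first annotated transcript, in the RefSeq annotation and genome of build TAIR10.1. It was found in 7 of 7 cold-regulated genes and in 0 of 3 CBF genes, against 39.5% of 27443 nuclear protein-coding genes. Of the 7 genes, 5 held at least 2 matches, against 11.5% of all genes. The match nearest the start codon of each gene follows, 5′ to 3′ on the gene's strand, with the core in capitals.
COR15A: tttcatggCCGACctgctttt
COR15B: cttgatggCCGACctcttttt
KIN1: aatagctaCCGACataaggca
KIN2: aaaagctaCCGACataaggca
COR47: ttcatctaCCGACttcaagaa
ERD10: ttcatccaCCGACCGACCGACgtaaaaga
RD29A: agatcaagCCGACacagacac
These lie at chr2:17712220-17712240 (minus strand, 302 bases before the start codon) for COR15A, chr2:17710126-17710146 (minus, 265) for COR15B, chr5:5209806-5209826 (plus, 178) for KIN1 and chr5:5211773-5211793 (plus, 185) for KIN2. The others lie at chr1:7085920-7085940 (minus, 268) for COR47, chr1:7089365-7089393 (minus, 278) for ERD10 and chr5:21240713-21240733 (plus, 208) for RD29A. Coordinates are those of TAIR10.1, and the deposited values rest on a build not given in the sources used here. ERD10 carries 3 overlapping cores in 1 run, and RD29A had 4 separate matches. The windows reach into annotated 5′ transcript ends: the match nearest the start codon lies downstream of the RefSeq transcript start in 7 of 7 genes. In 4 of 7 genes (COR15A, COR15B, KIN1 and RD29A) a further match lies before that start.

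The windows before the CBF genes hold other motifs. The core ACGTG of the ABRE, searched in the same way, was present in 10 of 10 genes and in 54.1% of all genes. The G-box CACGTG contains an ABRE core on each strand and is known as a site of PIF factors, which repress CBF1, CBF2 and CBF3. It was present before CBF1 and CBF2 and not in the CBF3 window, and in 5 of 7 cold-regulated genes, against 15.1% of all genes. The region is shown for the 3 copies with the G-box, or the ABRE core left in CBF3, in capitals.
CBF1: gtactataCACGTGtcattcac
CBF2: ttcttatcCACGTGgcattcac
CBF3: tatagtttACGTGgcattacc
They lie on the minus strand at chr4:13022824-13022845, chr4:13016324-13016345 and chr4:13019233-13019253, 275, 251 and 242 bases before the start codons of CBF1, CBF2 and CBF3. The RefSeq transcript starts lie 434, 149 and 397 bases before these codons. The stretches shown for CBF1 and CBF3 thus lie downstream of the annotated start, and that of CBF2 lies before it. The evening element AAAATATCT, a clock and cold motif, was found before 3 of 3 CBF genes and 4 of 7 cold-regulated genes, against 7.2% of all genes. The E-box CANNTG was also searched and was present in 10 of 10 genes and in 95.5% of all genes. The CAMTA core CGCG was present in 1 of 3 CBF genes and 3 of 7 cold-regulated genes, against 34.7% of all genes. A match is a description of the letters and not of a bound site.

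**Figure D1:**
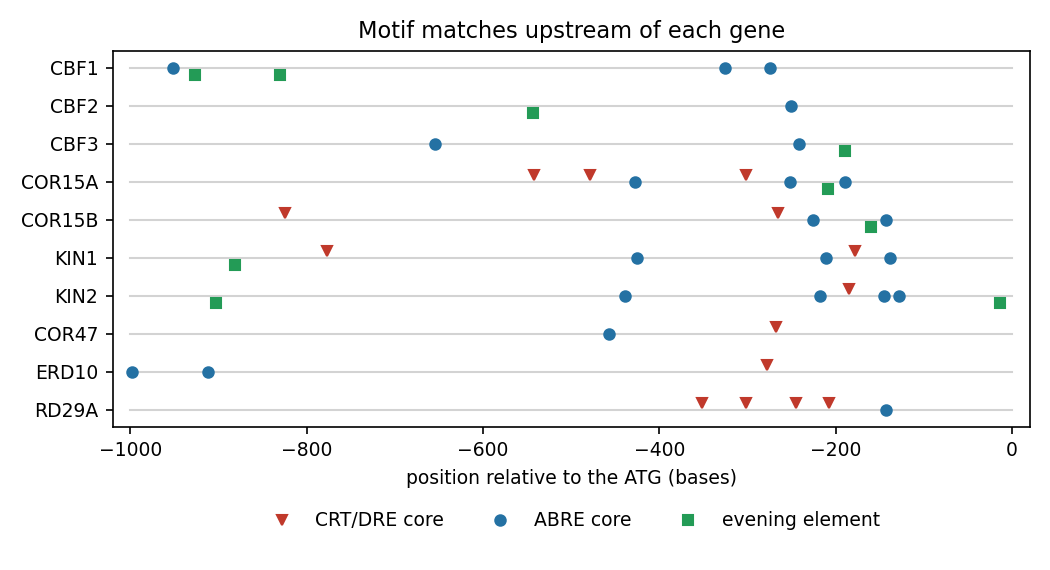
Motif matches in the 1000 bases before the start codon of each gene, by position in bases relative to the start codon (x axis). Triangles are CRT/DRE cores, circles ABRE cores (a G-box is 1 circle) and squares evening elements; overlapping matches, such as the 3 cores of ERD10, are 1 symbol, and the 3 CBF rows hold no triangle.

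The deposited values are FPKM, fragments per kilobase of gene scaled to the library total, so levels can be compared between genes. Their steps put the totals behind them at 23070249 for hdt1 and 21728500 for wild type, in reads or read pairs. Read numbers behind single values were recovered from the steps of the FPKM scale. Brackets give 95% exact Clopper-Pearson intervals from these reads. For a ratio between 2 genes set against the same ratio in the other library, they are 95% exact conditional odds-ratio intervals. Both kinds cover counting error alone. HDT1 itself checks the labels, with 5.19 FPKM in hdt1 stems and 52.6 FPKM in wild-type stems. The stem label was checked with 8 genes of xylem, fibre, phloem and cuticle, which ranged over 8.11 to 147 FPKM in the hdt1 library and 6.77 to 110 FPKM in the wild-type library. Their summed level was 336 FPKM in hdt1 stems and 190 FPKM in wild-type stems. In log2 ratio 7 of 8 were above 0 and 4 were at least 2-fold higher. Of all loci with a mean of at least 1 FPKM, 46.0% were above 0 and 2.32% were at least 2-fold higher. The part of this in the results below was not tested. Of 9 markers of root, seed, pollen and flower, 8 had a mean below 1 FPKM. The pollen gene VGD1 was at 5.75 FPKM in hdt1 stems and 1.83 FPKM in wild-type stems, the summed level of the 9 was 6.28 FPKM in hdt1 stems and 2.19 FPKM in wild-type stems, COBL9, CRU3 and AT2S3 were listed at 0 in both, and their part was not tested either. In such bulk RNA, fewer cells of a type and less RNA per cell cannot be told apart.

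The 10 genes spanned a wide range of levels in both libraries. COR47, a dehydrin, was the most abundant of them at 504 FPKM in hdt1 stems and 387 FPKM in wild-type stems, and ranked 183 of 33602 loci by mean FPKM. The dehydrin ERD10 followed at 245 FPKM in hdt1 stems and 158 FPKM in wild-type stems. KIN2 came next in both. At the low end, 3 genes lay below 2 FPKM in the hdt1 library (KIN1, CBF1 and CBF3), and 2 lay below 1 FPKM in the wild-type library (CBF1 and KIN1). Neighbours in the order of levels whose exact Poisson intervals overlapped were KIN1, CBF1 and CBF3 in the hdt1 library, and CBF3, CBF2 and RD29A, and also CBF1 and KIN1, in the wild-type library. The main change in the order was CBF3, which stood lowest of the 10 in the hdt1 library and sixth from the top in the wild-type library.

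**Figure D2:**
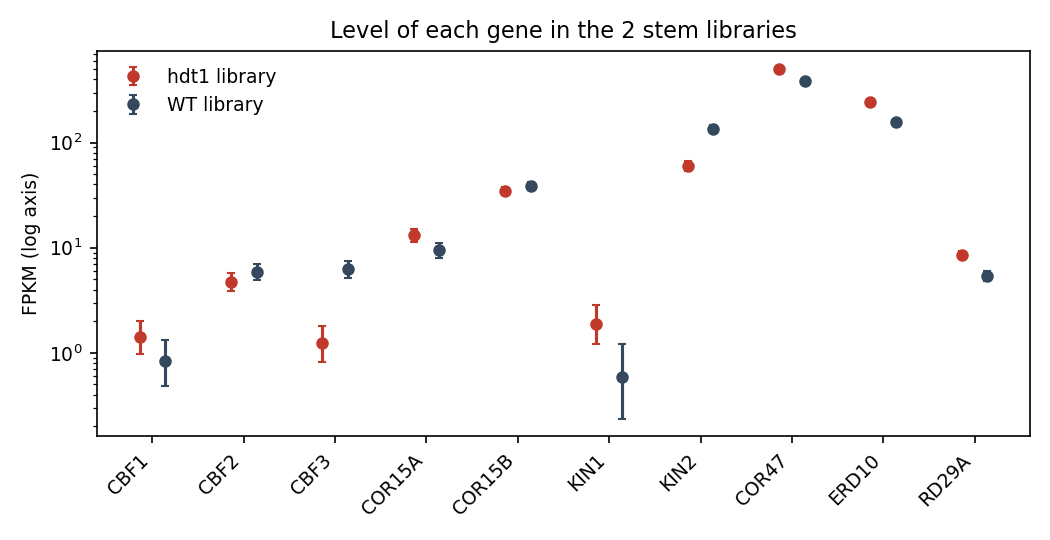
FPKM of the 10 genes (log axis) in the hdt1 library (red) and the wild-type library (dark blue), 1 library each, with 95% exact Poisson intervals for counting error. COR47 and ERD10 are the highest in both libraries, and CBF3 is at 1.24 FPKM in hdt1 and 6.23 FPKM in the wild type.

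Differences between the libraries went both ways among the 10 genes. On the scale of log2(FPKM + 1), 6 were higher and 4 lower in the hdt1 library, with a median log2 ratio of 0.39, beside -0.03 over the 17811 loci with a mean of at least 1 FPKM, a level that all 10 genes reached. On that scale 0 of 10 were at least 2-fold higher, where 2.32% of all loci were, and 2 of 10 (CBF3 and KIN2) were at least 2-fold lower, where 0.741% of all loci were. In either direction it was 2 of 10, where 3.06% of all loci were. The counting interval of the FPKM ratio lay above 1 for 5 of 10 and below 1 for 3 of 10, beside 24.3% and 28.5% of all loci. The genes were chosen with earlier results of these data known, so these counts describe the genes and carry no test.

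**Figure D3:**
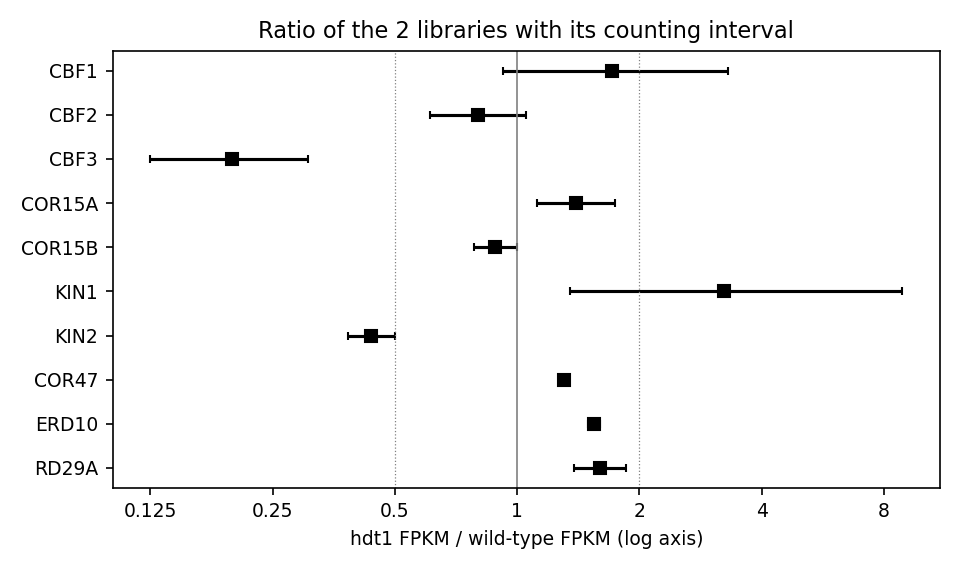
FPKM in hdt1 divided by FPKM in the wild type for each gene (log axis, 1 library per genotype), with the 95% exact counting interval; the solid line is no difference and the dotted lines are 2-fold. CBF3 and KIN2 lie at the left and KIN1 at the right, and the intervals of CBF1 and CBF2 include 1.

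The 3 CBF genes, a tandem array of AP2-domain activators on chromosome 4, differed from each other. CBF3 (DREB1A) was at 1.24 FPKM in hdt1 stems and 6.23 FPKM in wild-type stems, from at least 26 and 123 reads, 5.02-fold lower (3.27 to 7.99). Its log2 ratio was -1.69, and 0.168% of the loci compared had one as low or lower. CBF2 was at 4.73 FPKM in hdt1 stems and 5.90 FPKM in wild-type stems, 1.25-fold lower with an interval from 1.64-fold lower to 1.05-fold higher. CBF1 was at 1.42 FPKM in hdt1 stems and 0.827 FPKM in wild-type stems, from 31 and 17 reads. Its ratio of 1.72 had an interval of 0.922 to 3.31. CBF3 was thus the copy whose 2 values lay apart beyond counting error.

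The make-up of the CBF transcript pool differed accordingly. CBF3 made up 16.8% of the summed CBF FPKM in the hdt1 library and 48.1% in the wild-type library. The share of CBF2 was 64.0% in the hdt1 library and 45.5% in the wild-type library, and that of CBF1 was 19.2% in the hdt1 library and 6.38% in the wild-type library. The ratio of CBF3 to CBF1 was 0.874 in hdt1 stems and 7.54 in wild-type stems, 8.63-fold lower (3.93 to 19.1), and the ratio of CBF3 to CBF2 was 4.03-fold lower (2.39 to 6.90). Summed over the 3 copies, the level was 7.39 FPKM in hdt1 stems and 13.0 FPKM in wild-type stems, 1.75-fold lower. The coding sequences were 87.3% to 87.5% identical between pairs. CBF1 and CBF2 shared a run of 68 identical bases, and CBF3 shared at most 33 with either. The sources used here do not say how reads that fit several copies were treated.

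The relatives of the CBF genes in the same subfamily, which are tied to drought and salt rather than cold, had higher values in the hdt1 library. DDF1 was at 17.3 FPKM in hdt1 stems and 8.40 FPKM in wild-type stems, 2.06-fold higher (1.74 to 2.45). DDF2 was at 3.09 FPKM in hdt1 stems and 0.438 FPKM in wild-type stems, 7.06-fold higher (3.36 to 17.1) from 60 and 8 reads. CBF4 was at 1.54 FPKM in hdt1 stems and 1.02 FPKM in wild-type stems, from at least 8 and 5 reads. Its interval of 0.435 to 5.85, from these smallest read numbers, includes 1. DDF1 thus had the highest level of the 6 genes of the subfamily in both libraries.

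Among the cold-regulated genes, COR47 and ERD10 are dehydrins, acidic proteins that bind membranes under water loss, and both had higher values in the hdt1 library. COR47, from 28366 reads in the hdt1 library and 20502 in the wild-type library, was 1.30-fold higher (1.28 to 1.33). ERD10, its neighbour on chromosome 1 with a coding sequence 82.0% identical, was 1.55-fold higher (1.49 to 1.60). ERD14, a more abundant dehydrin of the same acidic kind that is not one of the 10 and is named after its values were seen, was at 1434 FPKM in hdt1 stems and 1642 FPKM in wild-type stems, a ratio of 0.873 (0.861 to 0.887). Together COR47 and ERD10 made up most of the FPKM of the 10 genes, 57.7% and 28.0% in the hdt1 library and 51.7% and 21.2% in the wild-type library. RD29A, a hydrophilic protein and the usual reporter of both the CBF and the abscisate branch, was at 8.58 FPKM in hdt1 stems and 5.38 FPKM in wild-type stems, 1.60-fold higher (1.38 to 1.85).

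The COR15 proteins, which are imported into the chloroplast and protect its inner envelope, lay on different sides. COR15A was at 13.2 FPKM in hdt1 stems and 9.45 FPKM in wild-type stems, 1.40-fold higher (1.12 to 1.75). COR15B was at 34.4 FPKM in hdt1 stems and 38.9 FPKM in wild-type stems, a ratio of 0.884 (0.782 to 0.998), an interval that includes 1 under each of the 3 other scalings of the libraries. The ratio of COR15A to COR15B was 0.384 in the hdt1 library and 0.243 in the wild-type library, 1.58-fold higher (1.22 to 2.04). The summed level of the pair was 47.6 FPKM in hdt1 stems and 48.4 FPKM in wild-type stems, a ratio of 0.984. COR15B overlaps AT2G42520 on the opposite strand by 468 bases in RefSeq, and the sources used here do not say if strand was used.

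KIN1 and KIN2, small alanine-rich proteins encoded by adjacent genes on chromosome 5, lay on opposite sides. KIN2 was at 59.4 FPKM in hdt1 stems and 136 FPKM in wild-type stems, 2.28-fold lower (at most 2.61-fold by an interval that lies below a ratio of 1) from at least 329 and 708 reads. KIN1 was at 1.89 FPKM in hdt1 stems and 0.587 FPKM in wild-type stems, 3.23-fold higher (1.35 to 8.87) from at least 24 and 7 reads. KIN2 stood 31.4-fold above KIN1 in the hdt1 library and 231-fold above it in the wild-type library. Their coding sequences, 201 bases each, were 95.0% identical with a shared run of 58 bases, so reads of the abundant KIN2 and the rare KIN1 cannot be assigned with certainty. Summed over both, the level was 61.3 FPKM in hdt1 stems and 136 FPKM in wild-type stems, 2.22-fold lower.

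Genes that act on CBF transcription were then examined. Of 14 known or proposed activators 12 reached a mean of 1 FPKM. Of these, 11 were above 0 and 0 were past 2-fold in either direction, with a median log2 ratio of 0.13. The counting interval lay above 1 for 6 of the 12, beside 24.3% of all loci, and included 1 for the other 6. Of all loci, 46.0% were above 0 and 3.06% were past 2-fold, with a median of -0.03. The bHLH factor ICE1, which binds the CBF3 promoter, was at 9.96 FPKM in hdt1 stems and 9.63 FPKM in wild-type stems (ratio 1.03, 0.902 to 1.19). The calmodulin-binding activators CAMTA3 and CAMTA2 were 1.19-fold (1.14 to 1.25) and 1.17-fold (1.08 to 1.27) higher. CAMTA5 was 1.11-fold, the SUMO ligase SIZ1 1.16-fold and the clock factor RVE4 1.14-fold higher. CCA1, a morning clock factor that binds the CBF promoters, was at 15.7 FPKM in hdt1 stems and 12.4 FPKM in wild-type stems, 1.26-fold higher (1.13 to 1.41), while LHY was at 1.37 FPKM in hdt1 stems and 1.31 FPKM in wild-type stems, with an interval that includes 1.

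Of 14 repressors of CBF transcription, all 14 reached a mean of 1 FPKM, 8 were above 0, 1 was at least 2-fold higher and 0 were 2-fold lower, with a median of 0.04. Of all loci, 46.0% were above 0, 2.32% were 2-fold higher and 0.741% were 2-fold lower. The one past 2-fold was MYB15, which represses CBF genes and is held back by ICE1. It was at 30.2 FPKM in hdt1 stems and 12.9 FPKM in wild-type stems, 2.34-fold higher (2.08 to 2.64). The evening and dusk clock repressors PRR5 and TOC1 were 1.54-fold (1.44 to 1.63) and 1.42-fold (1.36 to 1.49) higher, and PRR7 had an interval that includes 1. The zinc finger gene ZAT12 was 1.21-fold higher (1.16 to 1.27), whereas PIF7 was 1.23-fold lower (1.07 to 1.40) and SOC1 1.15-fold lower (1.10 to 1.21). HOS1, the E3 ligase that targets ICE1, had a ratio of 0.968. HOS15 was at 27.1 FPKM in hdt1 stems and 26.5 FPKM in wild-type stems, and the intervals of both include 1. HDT3 was at 33.3 FPKM in hdt1 stems and 42.9 FPKM in wild-type stems, 1.29-fold lower (1.18 to 1.41), with HDT2 and HDT4 1.22-fold and 1.43-fold lower.

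Measures of the time of day and of handling stood beside the CBF values as follows, since CBF genes answer both. Of the 4 evening genes listed, GI was 1.16-fold higher (1.12 to 1.21), and ELF3, ELF4 and LUX had intervals that include 1. Of the clock genes given above, PRR5, TOC1, CCA1 and RVE4 were 1.54-fold, 1.42-fold, 1.26-fold and 1.14-fold higher. PRR7 and LHY had intervals that include 1. Of 8 touch and wound genes 6 were above 0, and the median log2 ratio was 0.23. Of all loci, 46.0% were above 0, with a median of -0.03. Their summed level was 2521 FPKM in hdt1 stems and 2001 FPKM in wild-type stems. JAZ8 was 3.89-fold (3.41 to 4.44), ERF104 1.81-fold and WRKY40 1.60-fold higher, CML38 and TCH3 were each 1.17-fold higher, and TCH2 was 1.25-fold lower. The part of sampling time and handling in the CBF values was not tested.

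Cold-induced genes outside the 10 did not share one direction. Of 28 listed, 25 reached a mean of 1 FPKM, with 9 above 0, 16 below and 0 past 2-fold in either direction. Of all loci, 46.0% were above 0 and 3.06% were past 2-fold. The median of the list was -0.05, a value above 0 under 2 of the 3 other scalings, and that of all loci was -0.03. The late embryogenesis protein LEA14 was at 214 FPKM in hdt1 stems and 114 FPKM in wild-type stems, 1.89-fold higher (1.81 to 1.97). The clock-linked COR28 was 1.57-fold higher (1.46 to 1.69), and LTI30, another dehydrin, was 1.43-fold higher (1.30 to 1.57). On the other side, the temperature-induced lipocalin TIL was at 242 FPKM in hdt1 stems and 374 FPKM in wild-type stems, 1.55-fold lower with an interval below 1. The membrane proteins COR413IM1 and COR413PM1 were 1.54-fold (1.36 to 1.74) and 1.38-fold (1.10 to 1.74) lower. GOLS3, a galactinol synthase strongly induced by CBF factors, had 2 reads in the hdt1 library and 1 in the wild-type library, and RD29B, an abscisate gene next to RD29A, had 5 reads in hdt1 stems and 1 in wild-type stems. The 4 cold shock domain genes were between 1.08-fold and 1.11-fold lower. The interval of CSP4 included 1. The 3 other scalings multiply hdt1 values by 1.03 to 1.04, and under them the list median of -0.12 became -0.08 to -0.06.

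**Figure D4:**
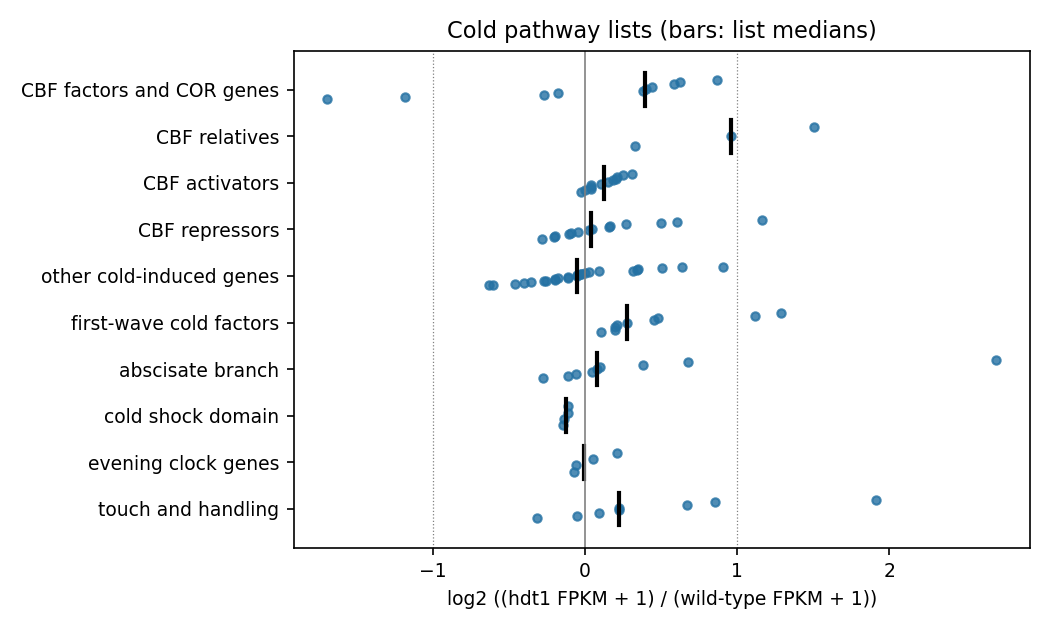
Log2 of (FPKM + 1) in hdt1 minus that in the wild type for every gene with a mean of at least 1 FPKM in 10 lists of the cold pathway; points are genes, black bars list medians, the solid line 0 and dotted lines 2-fold. The 10 CBF and COR genes reach from -1.69 (CBF3) to 0.87 (KIN1), and the first-wave factors all lie above 0.

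Transcription factors induced by cold in parallel with CBF were higher throughout. All 9 that reached a mean of 1 FPKM, of 10 listed, were above 0 with a counting interval above 1, and 2 were at least 2-fold higher. The median was 0.28. Of all loci, 46.0% were above 0, 24.3% had an interval above 1 and 2.32% were at least 2-fold higher. RAV1, a growth repressor, was at 242 FPKM in hdt1 stems and 98.5 FPKM in wild-type stems, 2.46-fold higher (2.36 to 2.56). The zinc finger gene AZF2 was at 104 FPKM in hdt1 stems and 47.4 FPKM in wild-type stems (2.05-fold to 2.36-fold higher). CZF1 was 1.40-fold, ZAT10 1.37-fold, DEAR1 1.22-fold and ERF6 1.16-fold higher. These factors also answer wounding and touch. Of the 8 touch genes above, 6 had higher values in the same library and 2 (TCH2 and CML37) had lower ones. The part of handling in these values was not tested. In the abscisate branch, 6 of 9 genes were above 0 with a median of 0.08. RD26 was 7.20-fold (6.23 to 8.36), the dehydrin RAB18 1.61-fold (1.49 to 1.75) and the drought factor DREB2A 1.31-fold higher (1.20 to 1.44). The ABRE-binding factor ABF2 was 1.22-fold lower (1.11 to 1.33), and ABF3 and DREB2B had intervals that include 1.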

How the data were processed

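RNA-seq of 2 stem libraries, 1 per genotype, was used. The authors deposited FPKM values in 1 table. Per the submitters' processing notes, the tools were HTSeq 0.6.1, Bowtie2 2.2.3 and TopHat2 2.0.12. The sources used here name no build, annotation, strand setting or treatment of multiply mapped reads. Left out were 67 features without a locus identifier.

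Library totals came from the commonest exact ratio of the 2 FPKM values, shared by 562 loci with equal reads. Read numbers are the whole numbers that give both values; the multiple was fixed by the RefSeq transcript length (within 30%) for 86.8% of 23501 features above 0, and is otherwise the smallest, written "at least". The implied length equalled the RefSeq length in 14.6% of the features so settled, so read numbers and intervals depend on that choice, and FPKM ratios do not. The smallest numbers, used for CBF3, COR15B, KIN1 and KIN2, give the widest intervals. Of the genes named from the other lists, CBF4, HDT4, PRR5, COR413PM1, ZAT10, DREB2A, RD26, TCH2, CML38 and JAZ8 also rest on smallest numbers. The recovery was tested on simulated data.

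Log2 ratios were taken after adding 1 FPKM, which shrinks those of low genes; loci averaging under 1 FPKM were left out of counts, and the limit was 2-fold. Nothing between genotypes was tested. The genes, and 12 further lists, were chosen with earlier results of these data known. Named are all 10 genes, the HD2 genes, the CBF relatives, fixed regulators, and per pathway list up to 6 genes with the largest absolute log2 ratios. Some of the neighbours, some markers of other organs, and ERD14, CML37, RVE8 and PRR9 are named as well. The stem markers are not named singly. Gene symbols follow the loci. Python 3.11.15, pandas 2.3.3, scipy 1.17.1 and Biopython 1.88 (global alignment of coding sequences) were used. Alternatives were other pseudocounts, scalings, filters and fold limits.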

Additional observations from a re-analysis of the deposited data

How the results depend on the processing

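With 1 library per genotype nothing could be left out in turn, and no paired analysis was possible because each genotype has 1 library. The alternatives for each of the 10 genes were 2 other pseudocounts, 3 other scalings and no pseudocount, and none of them could change a sign. A pseudocount leaves the sign as it is, and the scalings shift log2 ratios by less than the smallest ratio (COR15B, -0.17). They do change the size. The log2 ratio of CBF3 ranged over -2.33 to -0.85, that of KIN1 over 0.30 to 1.69 and that of KIN2 over -1.19 to -1.12. The number at least 2-fold higher became 1 with 0.1 FPKM added and 3 at a limit of 1.5-fold. The number at least 2-fold lower became 1 with 5 FPKM added, 1 among genes averaging 5 FPKM or more and 0 at a limit of 4-fold. Against ratios of hdt1 to wild type from summed reads, with the smallest read numbers for CBF3, COR15B, KIN1 and KIN2, of 0.577 for the 3 CBF genes, 0.986 for COR15A with COR15B and 0.465 for KIN1 with KIN2, the copies alone gave 1.72 (CBF1), 0.802 (CBF2), 0.199 (CBF3), 1.40 (COR15A), 0.884 (COR15B) and 3.23 (KIN1). The cause of these differences was not tested. Of 357 other values for single genes and lists, 326 stayed within limits and 31 moved further. The limits were the counting interval for a gene and 1.5 times for a count or the scale of a list's median. Counts of 0 that stayed at 0 are among the 326. A change of sign was looked for in CBF3 and KIN2 alone, where these alternatives could not give one. The median of the 4 evening genes changed sign under 3 scalings, and that of the other cold-induced genes under 2. Over all loci, 413 were 2-fold higher and 132 lower, against 652 and 246 with 0.1 FPKM added, 167 and 47 with 5 FPKM added, 271 and 79 at 5 FPKM or more, 1254 and 572 at 1.5-fold and 37 and 11 at 4-fold. The scalings shifted log2 ratios by 0.04 to 0.06. With each of them 2 of the 3 CBF relatives were 2-fold higher, in place of 1, while 458 to 483 of all 17811 loci were. That number was also 2 with 0.1 FPKM added and at a limit of 1.5-fold. It was 0 with 5 FPKM added, among genes averaging 5 FPKM or more and at a limit of 4-fold. Depth limits KIN1 and CBF1, which rest on at least 7 and on 17 reads in the wild-type library.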

Other observations

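The 10 genes lie in 5 places of the genome, and the 2 nearest protein-coding genes on each side of these places were read for comparison. Of 20 such neighbours 14 reached a mean of 1 FPKM, 4 were above 0 and 10 below, with a median log2 ratio of -0.11. Of all loci, 46.0% were above 0 and 3.06% were past 2-fold in either direction, with a median of -0.03. The 1 neighbour past 2-fold was AT1G20470, a SAUR-like gene near ERD10, at 3.62 FPKM in hdt1 stems and 8.68 FPKM in wild-type stems, 2.39-fold lower. Beside the CBF array, RS40 was at 70.5 FPKM in hdt1 stems and 69.5 FPKM in wild-type stems, and ABCB28 on the other side was at 11.2 FPKM in hdt1 stems and 15.6 FPKM in wild-type stems. Beside KIN2, AT5G15980 was at 5.72 FPKM in hdt1 stems and 5.96 FPKM in wild-type stems. AT5G15950, next to KIN1, was listed at 0 in both libraries.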
